A study of Mus musculus with 32 samples.

Results

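Cyclic AMP (cAMP) is read in cells by a small set of proteins, and the genes of 10 of them are described here, of 20560 genes in the table. Rapgef3 and Rapgef4 encode Epac1 and Epac2. Prkar1a and Prkar2b encode regulatory subunits of protein kinase A (PKA), and Prkaca and Prkacb its catalytic subunits. Pde4a, Pde4b and Pde4d encode phosphodiesterases of the PDE4 family, and Crem encodes a transcription factor of the CREB family. Rapgef3 was selected on its measured values, which were lower in Zbtb9 knockdown cells than in control cells on all 4 days, and the other 9 genes were added as the rest of its pathway. The knockdown values of Rapgef3 are therefore given as a description, with no test.

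The RNA came from 32 libraries of 3T3-L1, a clonal mouse preadipocyte line that turns into fat-storing cells under hormones. At each of days 0, 3, 7 and 11 there were 4 libraries of cells with a scramble short hairpin RNA (shRNA), called control, and 4 libraries of cells with an shRNA against Zbtb9, a zinc finger and BTB domain gene. The 4 knockdown libraries were 2 with shRNA 1 and 2 with shRNA 2, so all cells compared here carried a hairpin. Differentiation was started in all groups at day 0, after confluence, with insulin (167 nM), dexamethasone (1 μM) and the methylxanthine IBMX (0.5 mM). From day 3 the medium held only the insulin, and from day 7 none of these additions. Whether the cells of days 0, 3 and 7 were taken before or after the change of medium, how the hairpins were delivered and whether a line was 1 clone are not given in the sources used here. The titles call the libraries biological replicates and do not say that they are separate cultures, so p-values measure only the spread between these libraries.

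When a receptor activates adenylyl cyclase, the cAMP that forms binds the regulatory subunits of PKA and frees the catalytic subunits, which phosphorylate CREB and many other proteins. Epac proteins are a separate cAMP receptor: they load the small GTPases Rap1 and Rap2 with GTP. PDE4 enzymes hydrolyse cAMP and so end the signal, and IBMX, part of the usual adipogenic mixture, blocks most phosphodiesterases. In fat cells PKA with the regulatory subunit RIIβ, the product of Prkar2b, is known for driving lipolysis. Crem gives rise to activators and, from an internal promoter, to the cAMP-induced repressor ICER, and reads counted per gene do not separate them.

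The site through which CREB and Crem act is the cAMP response element, whose full form is TGACGTCA and whose half-site is TGACG. Both were searched on both strands in promoter windows from RefSeq (GRCm38.p6), which run from 250 bases before to 50 bases after a start site. The full site contains the half-site on each strand. Windows were matched for 9 of the 10 members, all but Crem. Of the 23 windows of these genes, 2 held the full site and 8 the half-site, while 1.79% of all 32851 windows held the full site and 20.8% the half-site. By gene, 6 of 9 members had a half-site in at least 1 window, against 23.0% of all genes, and many members have several start sites. Both full sites belong to Prkar1a, in windows that overlap. The bases before the start site are shown for the gene that chose the set, for the gene with the largest change in control cells and for the gene with the full site, with half-sites of either strand and the full site in capitals. The sequences run from the base farthest from the start site, and the match is a description of letters, not of binding.
Rapgef3: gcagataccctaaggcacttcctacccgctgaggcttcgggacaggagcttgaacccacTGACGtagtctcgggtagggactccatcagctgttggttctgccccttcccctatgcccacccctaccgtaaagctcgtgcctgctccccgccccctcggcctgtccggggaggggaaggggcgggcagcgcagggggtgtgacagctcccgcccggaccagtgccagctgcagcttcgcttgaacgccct
Pde4b: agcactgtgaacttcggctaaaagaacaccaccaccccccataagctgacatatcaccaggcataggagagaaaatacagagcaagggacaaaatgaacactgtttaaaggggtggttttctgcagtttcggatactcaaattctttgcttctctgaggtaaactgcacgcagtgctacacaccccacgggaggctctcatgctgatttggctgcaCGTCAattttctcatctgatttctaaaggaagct
Prkar1a: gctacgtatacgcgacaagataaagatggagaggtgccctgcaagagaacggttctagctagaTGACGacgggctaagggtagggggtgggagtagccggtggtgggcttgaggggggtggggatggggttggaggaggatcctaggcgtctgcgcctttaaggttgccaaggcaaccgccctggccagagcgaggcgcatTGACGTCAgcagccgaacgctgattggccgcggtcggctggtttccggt
The Rapgef3 stretch is chr15:97767667-97767916 (minus strand), the Pde4b stretch is chr4:102421305-102421554 (plus strand) and the Prkar1a stretch is chr11:109650699-109650948 (plus strand). The half-site of Rapgef3 starts at -191 and that of Pde4b, on the other strand, at -34, where -1 is the base before the start site. Pde4b had 4 windows and Prkar1a 6, of which 1 each is shown.

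By Ensembl identifier in GENCODE release M21 (GRCm38), Rapgef3 (ENSMUSG00000022469) lies on chromosome 15 from 97744770 to 97767972, minus strand. Of its exon bases, 6.1% lie under the genes Rapgef3os1 and Rapgef3os2 on the other strand, and whether counting used strand is not given in the sources used here. Pde4b (ENSMUSG00000028525) lies on chromosome 4 from 102087543 to 102607259, Pde4a (ENSMUSG00000032177) on chromosome 9 from 21165714 to 21213248 and Pde4d (ENSMUSG00000021699) on chromosome 13 from 108449948 to 109953461, all on the plus strand. Prkar2b (ENSMUSG00000002997) lies on chromosome 12 from 31958476 to 32061296 and Prkacb (ENSMUSG00000005034) on chromosome 3 from 146729574 to 146812990, both on the minus strand. Prkar1a (ENSMUSG00000020612) lies on chromosome 11 from 109649405 to 109669656, Prkaca (ENSMUSG00000005469) on chromosome 8 from 83972993 to 83996443 and Rapgef4 (ENSMUSG00000049044) on chromosome 2 from 71981240 to 72257474, all on the plus strand. For Crem, 8.0% of exon bases lie under a gene of the other strand, for Rapgef4 5.0%, and for the PKA and PDE4 members none do. The build used for the deposited values is not given in the sources used here.

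Each library held 22280363 to 31073726 reads in genes. Depths of control and knockdown overlapped at days 0, 3 and 7, while at day 11 control libraries held 26486057 to 31073726 reads and knockdown libraries 22839508 to 25511855. Values called normalized reads are whole reads over a size factor for the library, which runs from 0.862 to 1.229. Zbtb9, the targeted gene, had few reads, and 84.4% of its exon bases are shared with another gene of the same strand. It was at 61.9%, 50.6%, 42.7% and 54.5% of control at days 0, 3, 7 and 11 (exact permutation test, two-sided, p = 0.029, 0.114, 0.029 and 0.143, or 0.058, 0.143, 0.058 and 0.143 adjusted over the days, n = 4 against 4). Without shRNA 1 replicate 2, which had 19.3 normalized reads, the day 11 value was 31.2% of control. Summed over 10 adipocyte markers, control libraries rose from 19722 to 20319 normalized reads at day 0 to 57088 to 67325 at day 11, and summed fibroblast markers were between 313863 and 880133 in all libraries. The macrophage, skeletal muscle and endothelial lists summed to at most 1058, 689.2 and 101.8 normalized reads in any library, and Ptprc, the pan-leukocyte marker, was at 3 reads or fewer throughout.

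In control cells at day 0, PKA subunits gave the largest amount of RNA per kb of exon and the PDE4 genes far less. Per kb of exon at day 0, normalized reads were 2566 for Prkar1a, 2025 for Prkaca, 848.1 for Prkar2b, 502.2 for Prkacb, 189.9 for Rapgef3, 97.2 for Pde4a, 34.5 for Pde4d, 33.4 for Pde4b and 16.9 for Crem. Pde4b and Pde4d are the only neighbours in that order whose control libraries overlapped at day 0. By day 3 Pde4b stood at 906.5 normalized reads per kb, above Prkar2b (485.2) and Prkacb (432.1). Rapgef4, the second Epac gene, had 0 to 7 reads in every one of the 32 libraries, so it was under the filter on low values and no difference could be measured for it.

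In control cells the induction step changed every member that passed the filter. From day 0 to day 3 Pde4b rose 27.2-fold, Pde4d 2.18-fold and Crem 1.78-fold in mean normalized reads, while Rapgef3 fell to 0.247 of its day 0 level, Pde4a to 0.505 and Prkar2b to 0.572. From day 3 to day 7 these directions were undone for all 6: Pde4b fell to 0.0507 of its day 3 level and Prkar2b rose 2.92-fold. Of the marker genes, 9 of 10 adipocyte genes were called higher and 9 of 10 fibroblast genes lower at the first step, and 10 of 10 and 7 of 10 higher at the second, and their part in these changes was not tested. Day 3 control libraries are shared by both steps, so the directions on either side of day 3 are not independent. A gene's RNA is measured over all cells of a culture, so fewer cells of a type and less RNA per cell cannot be told apart.

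Called means an adjusted p under 0.05 by limma over all genes tested, and 9 of the 10 members passed the filter. At the first step 3 of 9 members were called higher and 6 lower, where 38.3% of all genes tested were called higher and 38.2% lower. At the second step 4 were higher and 5 lower, where 37.6% of genes were higher and 36.6% lower. At the third step, day 11 against day 7, 3 were higher and 4 lower, where 28.9% were higher and 26.1% lower. Rescaling to equal library totals moved the median change of all genes at the first step to -0.12 (log2), and the higher genes went from 50.1% to 38.6% of those called, while every member kept its direction and its call.

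Rapgef3, the Epac gene of these cells, was highest at day 0. Control libraries had 1173, 1168, 1234 and 1239 normalized reads at day 0 and 296.6, 321.6, 301.4 and 269.0 at day 3. At day 7 they had 564.8, 507.1, 456.4 and 498.8, and at day 11 676.0, 613.0, 593.9 and 541.5. Every day 3 library lay below every library of another day, and the day 7 and day 11 libraries overlapped. The log2 change was -1.88 ± 0.07 (standard error, SE) at the first step, adjusted p = 4.14e-23, 0.70 ± 0.07 at the second, adjusted p = 2.56e-11, and 0.24 ± 0.07 at the third, adjusted p = 0.00299. The third call was lost in 1 fit of all 32 libraries, where the adjusted p was 0.284.

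**Figure D1:**
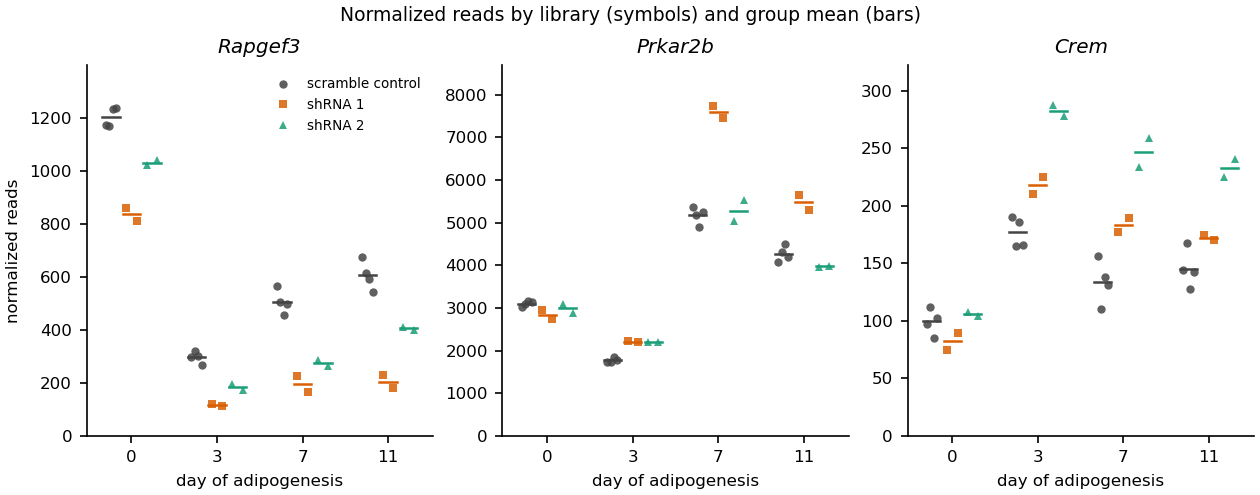
Normalized reads (vertical axis, from 0) of Rapgef3, Prkar2b and Crem in each library by day of adipogenesis, with circles for control, squares for shRNA 1, triangles for shRNA 2 and bars for group means. Rapgef3 fell from 1168 to 1239 in controls at day 0 to 269.0 to 321.6 at day 3, and shRNA 1 libraries were the lowest on all 4 days.

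Of the 2 member genes for PKA regulatory subunits, Prkar1a, the ubiquitous form, changed by less at each step in control cells than Prkar2b, the form of fat and brain. Prkar1a had a mean of 11089 ± 215.7 normalized reads at day 0 (SD, n = 4) and 9909 ± 131.4, 9067 ± 304.7 and 9269 ± 111.6 on the later days. Its log2 changes were -0.16 and -0.12 at the first 2 steps, adjusted p = 4.15e-05 and 0.000751, and 0.03 at the third, adjusted p = 0.424.

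Prkar2b in control libraries had 3015, 3090, 3153 and 3131 normalized reads at day 0 and 1737, 1726, 1837 and 1788 at day 3. It then had 5365, 5168, 4886 and 5242 at day 7 and 4068, 4315, 4489 and 4187 at day 11. The 4 days did not overlap, with day 3 lowest and day 7 highest. The log2 changes were -0.77 ± 0.04, 1.49 ± 0.04 and -0.27 ± 0.04 (SE), adjusted p = 1.7e-19, 3.5e-27 and 2.03e-07. As a share of the summed reads per kb of these 2 regulatory subunits, Prkar2b went from 24.8% ± 0.638 at day 0 (SD, n = 4) to 17.5% ± 0.421 at day 3, 40.3% ± 1.41 at day 7 and 35.2% ± 1.03 at day 11.

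Of the catalytic subunits, Prkaca had 79.7% to 86.4% of the summed reads per kb of exon in control group means. That share rests on merged exon lengths of 2488 bases for Prkaca and 8772 for Prkacb. Before division by length, day 3 control libraries had 4098 to 4392 normalized reads for Prkaca and 3603 to 3948 for Prkacb. Prkaca fell by 0.25 on the log2 scale at the first step, rose by 0.53 at the second and fell by 0.40 at the third. The adjusted p was 1.17e-07, 2.11e-15 and 1.29e-11. Prkacb had 4405 ± 110.1, 3791 ± 143.6, 3433 ± 75.2 and 3819 ± 115.4 normalized reads in day order (SD, n = 4). Its log2 changes were -0.21, -0.14 and 0.15, adjusted p = 2.48e-06, 0.000798 and 0.000577, so the 2 catalytic genes went opposite ways after day 3. Prkar2a, a regulatory subunit gene outside the 10, went the opposite way to Prkar2b at the first step, from 1403 ± 52.5 to 2542 ± 102.2 normalized reads (SD, n = 4). It was 0.82 ± 0.04 higher on the log2 scale (SE), adjusted p = 3.7e-18.

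**Figure D2:**
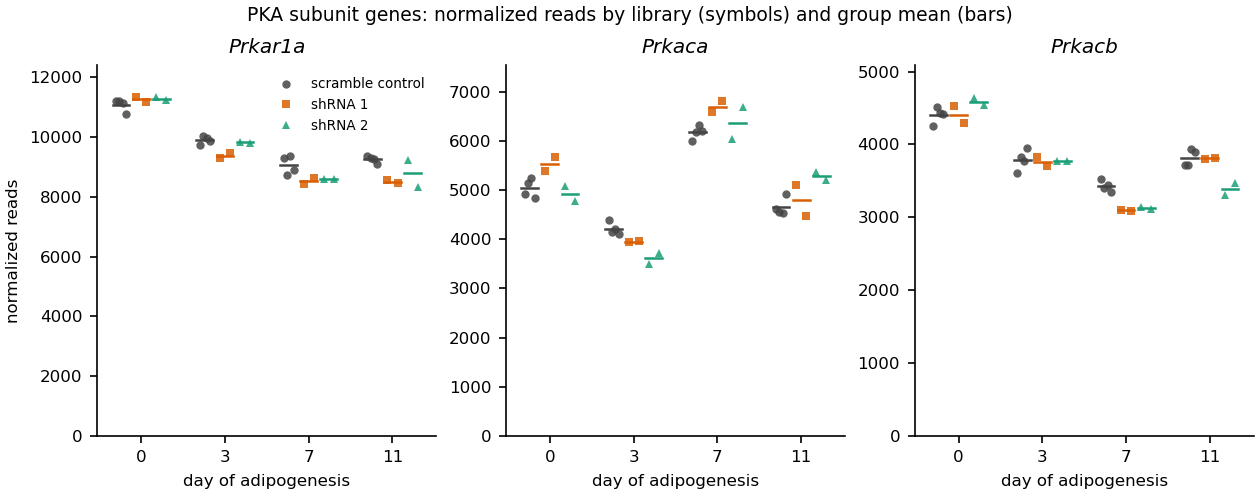
Normalized reads (vertical axis, from 0) of Prkar1a, Prkaca and Prkacb in each library by day of adipogenesis, with circles for control, squares for shRNA 1, triangles for shRNA 2 and bars for group means. Prkar1a control means stay between 9067 and 11089, and at day 7 the 4 knockdown libraries of Prkacb lie below all 4 controls.

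The PDE4 genes gave the largest change of the set. Pde4b, a PDE4 gene that cAMP induces in many cells, had 341.8, 386.5, 344.4 and 337.4 normalized reads in control libraries at day 0 and 9585, 9410, 9560 and 9735 at day 3. By day 7 it had 461.5, 471.6, 521.4 and 485.0 and by day 11 263.6, 302.7, 299.3 and 277.7. No 2 days overlapped. The log2 change was 4.57 ± 0.05 (SE) at the first step, adjusted p = 5.9e-37, -4.14 ± 0.05 at the second, adjusted p = 8.63e-35, and -0.71 ± 0.05 at the third, adjusted p = 2.93e-13.

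Pde4d rose and fell at the same steps by less. Its control libraries had 422.6, 408.8, 384.7 and 442.6 normalized reads at day 0 and 840.5, 900.1, 930.4 and 950.4 at day 3. By day 7 they had 587.5, 579.1, 629.2 and 486.1 and by day 11 465.3, 446.6, 455.2 and 472.7. Day 3 stood apart from the other days. The log2 changes were 1.05, -0.63 and -0.28, each with an SE of 0.07, adjusted p = 2.91e-16, 2.06e-10 and 0.000424. Pde4a went the other way, with means of 744.0 ± 15.2, 375.8 ± 40.6, 644.2 ± 55.2 and 762.4 ± 41.0 normalized reads (SD, n = 4) in day order. Its log2 changes were -0.92, 0.72 and 0.23, adjusted p = 1.34e-14, 8.9e-12 and 0.00364.

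The makeup of the RNA of the 3 PDE4 members, with Pde4c left out, therefore turned over at day 3. Per kb of exon, Pde4a made 58.9% ± 0.644 of the summed RNA of the 3 genes at day 0 (SD, n = 4) and 4.76% ± 0.517 at day 3, while Pde4b went from 20.2% ± 1.21 to 87.9% ± 0.192. The sum itself went from 165.1 ± 4.18 normalized reads per kb at day 0 to 1031 ± 13.6 at day 3, then to 177.6 ± 11.1 and 165.0 ± 5.95. By day 11 the makeup was back near that of day 0, with Pde4a at 60.3% ± 1.16 and Pde4b at 16.4% ± 1.00.

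**Figure D3:**
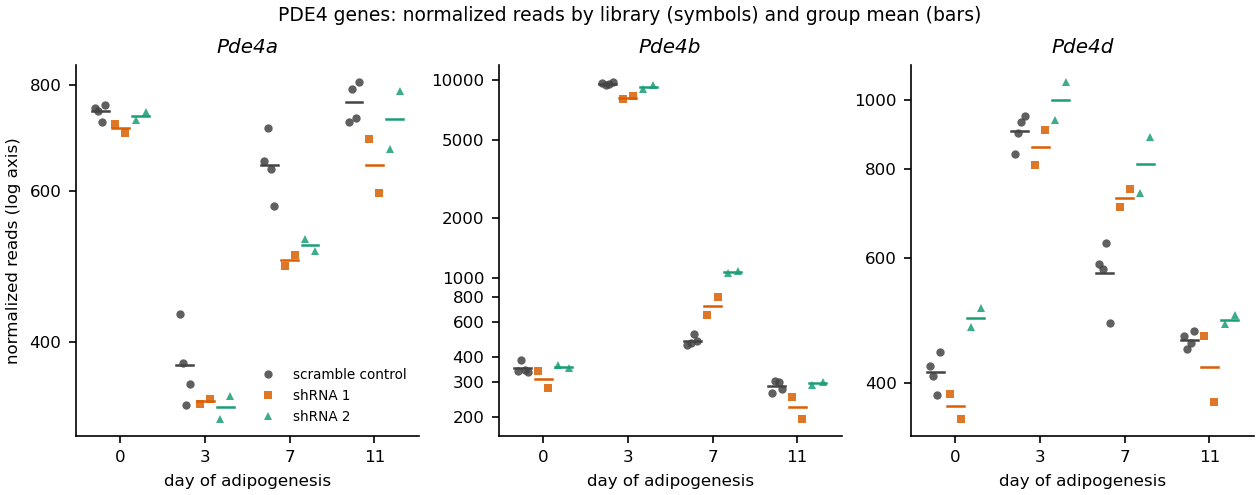
Normalized reads (vertical log axis, a different range in each panel) of Pde4a, Pde4b and Pde4d in each library by day of adipogenesis, with circles for control, squares for shRNA 1, triangles for shRNA 2 and bars for group means. Pde4b controls go from 337.4 to 386.5 at day 0 to 9410 to 9735 at day 3, and at day 7 all 4 knockdown libraries of Pde4b and Pde4d lie above all 4 controls.

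Crem, with the fewest reads of the members that passed the filter, had 85.4 to 112.3 normalized reads in control libraries at day 0 and 165.0 to 190.4 at day 3. It then had 110.5 to 156.5 at day 7 and 127.3 to 167.3 at day 11. Day 3 was above days 0 and 7 without overlap and overlapped day 11 in part. Its log2 changes were 0.68 ± 0.10 (SE), adjusted p = 2.9e-07, -0.34 ± 0.10, adjusted p = 0.00369, and 0.10 ± 0.10, adjusted p = 0.443.

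Other genes of the pathway moved with the same timing in part. Of 14 tested genes that textbooks list as induced by cAMP, 10 were called higher and 2 lower at the first step, with a median log2 change of 1.11, and 1 higher and 10 lower at the second, with a median of -0.75. The medians of all genes tested were 0.00 and 0.01, and 38.3% of all genes were called higher and 38.2% lower at the first step and 37.6% and 36.6% at the second. Rgs2, a brake on G protein signalling, went from 398.2 ± 23.2 to 31143 ± 474.2 normalized reads (SD, n = 4) by day 3, and Nr4a1, an orphan nuclear receptor, fell from 17500 ± 464.9 at day 3 to 396.3 ± 26.9 at day 7. The list of phosphodiesterases outside the PDE4 members includes Pde4c. Of its 6 tested genes 2 were called higher and 3 lower at the first step. Pde10a rose from 38.2 ± 6.81 to 567.1 ± 30.8 and Pde1b fell from 126.8 ± 25.4 to 53.0 ± 6.93. At the second step Pde1b rose to 772.1 ± 68.2 and Pde10a fell to 91.7 ± 21.9.

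The counts of the other lists stand beside the same shares of all genes, and no list was tested against them. Of 10 tested A-kinase anchoring proteins, which hold PKA at its sites of action, 4 were called higher and 4 lower at the first step, with a median of -0.06, and Akap12 fell from 3954 ± 243.2 to 311.2 ± 33.4 normalized reads. Of 8 tested adenylyl cyclase and G protein genes 3 were higher and 3 lower, and Gnai2, an inhibitory G protein subunit, fell from 15107 ± 466.0 to 8126 ± 75.1. Of 14 tested Rap GTPases, other exchange factors and Rap GAPs, 5 were higher and 8 lower at the first step and 3 higher and 9 lower at the second, with medians of -0.24 and -0.30. Of 11 CREB family genes and coactivators, 1 was higher and 6 lower at the first step, with a median of -0.11.

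Zbtb9 knockdown libraries had lower Rapgef3 on every day, and Crem was called higher at days 3, 7 and 11. Pde4b and Pde4d were called higher at day 7. Beside these, adipocyte markers were higher in knockdown: 1 of 10 was called higher at day 0, 10 of 10 at day 3 and day 7 and 9 of 10 at day 11. Of all genes tested 0.817%, 14.6%, 24.9% and 16.8% were called higher in day order. The median log2 differences of the markers were 0.04, 0.97, 1.96 and 1.78. At day 0 the adipocyte markers summed to 21961 to 23559 normalized reads in knockdown and 19722 to 20319 in control libraries, without overlap. Their sum ran from 44324 to 59752 normalized reads in knockdown against 26464 to 31726 in control libraries at day 3. At day 7 it ran from 136843 to 206452 against 49849 to 54328, and at day 11 from 118285 to 143676 against 57088 to 67325. Of all genes tested 2.44%, 12.1%, 22.6% and 16.2% were called lower in day order. Of 10 fibroblast markers 2, 3, 8 and 4 were called lower in day order, and 1 was called higher at day 3. Their sum did not overlap at day 0, with 694262 to 801223 in knockdown and 837511 to 880133 in control libraries, or at day 7, with 541344 to 600841 and 659963 to 721053. It overlapped at day 3, with 313863 to 388483 and 351891 to 385026, and at day 11, with 634661 to 780751 and 748126 to 858345.

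Other cell types' markers were far lower in level. Skeletal muscle markers summed to 562.2 to 689.2 in knockdown and 326.8 to 408.4 in control libraries at day 7 and to 517.8 to 583.4 and 291.2 to 330.7 at day 11, with Acta1 and Tnnt1 at 3 reads or fewer in both groups on both days. Macrophage markers summed to 478.1 to 632.5 in knockdown and 662.7 to 738.8 in control libraries at day 3 and to 901.7 to 1058 and 720.3 to 830.7 at day 11. Endothelial markers summed to 47.8 to 77.6 and 83.6 to 101.8 at day 11. The part of these shifts in the differences of the members was not tested.

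Rapgef3 at day 0 had 860.6 and 810.9 normalized reads with shRNA 1 and 1021 and 1041 with shRNA 2, which is 77.6% of the control mean for the 4 libraries. At day 3 it had 120.4 and 112.2 with shRNA 1 and 193.9 and 172.4 with shRNA 2. At day 7 the values were 226.3 and 163.6 with shRNA 1 and 287.4 and 263.0 with shRNA 2, and by day 11 they were 230.8 and 179.4, and 411.5 and 399.6. All 4 knockdown libraries lay below all 4 controls on each day. The knockdown means of the later days were 50.4%, 46.4% and 50.4% of control, and the log2 differences were -0.35, -0.90, -1.03 and -0.98 in day order. These are the values that chose the gene, so they carry no test.

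At day 0 no other member was called by limma, where 0.817% of genes tested were called higher and 2.44% lower. No member had an unadjusted p under 0.05 either, and limma with voom weights on rebuilt reads called 0 of 8. With shRNA 1 alone against control Prkar2b was called at -0.12 (adjusted p = 0.0298) and Prkaca at 0.13 (0.0126), and with shRNA 2 alone Pde4d at 0.24 (0.0367), beside -0.15 with shRNA 1. Under rescaling to equal totals, higher genes went from 25.1% to 43.3% of those called at day 0. The estimates of the 8 members lay between -0.08 and 0.05, and the widest 95% interval, of Crem, ran from -0.32 to 0.18.

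At day 3, 2 of 8 members were higher and 2 lower, where 14.6% of genes were called higher and 12.1% lower. Prkar2b had 2216, 2188, 2211 and 2200 normalized reads in knockdown, above the 1726 to 1837 of control libraries. It was 0.30 ± 0.04 higher (SE, log2), adjusted p = 0.000153. Crem had 210.1 and 225.4 with shRNA 1 and 287.8 and 277.8 with shRNA 2, above the highest control of 190.4, a difference of 0.42 ± 0.10, adjusted p = 0.00876.

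Prkaca and Pde4b were lower at day 3 by small amounts. Prkaca had 3941, 3959, 3495 and 3723 normalized reads in knockdown against 4098 to 4392 in control libraries, a log2 difference of -0.15 ± 0.05 (SE), adjusted p = 0.0259. Pde4b had 8014, 8255, 8983 and 9388 against 9410 to 9735, a difference of -0.14 ± 0.05, adjusted p = 0.0439. Groups did not overlap for either gene. Both calls were lost with no filter (adjusted p = 0.0508 and 0.0854) or with the variance trend and the robust step both dropped (0.0711 and 0.107). Prkaca was no longer called without shRNA 2 replicate 1 or without control replicate 1, 2 or 3, with adjusted p from 0.052 to 0.086. Pde4b was no longer called without shRNA 1 replicate 1 or 2 or any 1 control replicate, with adjusted p from 0.0754 to 0.12. With shRNA 2 alone against control, Pde4b was -0.06, adjusted p = 0.292. With shRNA 1 alone Prkaca was -0.09, adjusted p = 0.0729, and Crem was 0.26, adjusted p = 0.0746. In 1 fit of all 32 libraries Pde4b was not called (adjusted p = 0.388).

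At day 7, 3 of 8 members were higher and 2 lower, where 24.9% of genes were called higher and 22.6% lower. Pde4b had 650.5 and 805.1 normalized reads with shRNA 1 and 1057 and 1086 with shRNA 2, against 461.5 to 521.4 in control libraries. In normalized reads that is 185.6% of the control mean, and the deposited log2 values differed by 0.82 ± 0.14 (SE), adjusted p = 0.000421. Pde4d had 707.3, 750.6, 739.5 and 887.5 against 486.1 to 629.2, a difference of 0.41 ± 0.09, adjusted p = 0.00105. For both, every knockdown library was above every control, and the knockdown means lay between the control means of day 3 and day 7.

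Crem was higher at day 7 too, with 177.6 and 189.1 normalized reads for shRNA 1 and 233.9 and 259.1 for shRNA 2 against 110.5 to 156.5, a log2 difference of 0.56 ± 0.12 (SE), adjusted p = 0.00142. Pde4a was lower, with 490.1, 505.8, 527.6 and 511.4 against 577.3 to 712.0, a difference of -0.31 ± 0.07, adjusted p = 0.0021. Prkacb was lower by 0.13 ± 0.05, adjusted p = 0.0221, with 3093 to 3144 in knockdown and 3351 to 3530 in control libraries. The groups of these 3 genes did not overlap. The Prkacb call was lost without control replicate 1, where the adjusted p was 0.0716. Prkar1a did not overlap either, with 8438 to 8651 against 8725 to 9357, but its difference of -0.08 was not called (adjusted p = 0.178). Rescaling to equal totals made it -0.12, which was called (adjusted p = 0.0351).

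The PDE4 makeup at day 7 moved with these genes. Pde4a made 31.1% ± 3.12 of the summed PDE4 reads per kb in knockdown (SD, n = 4) and 47.4% ± 2.13 in control libraries, and Pde4b 39.1% ± 4.64 and 25.9% ± 2.00. Pde4a shares ran from 27.4% to 34.7% in knockdown and the lowest control share was 45.0%, so they did not overlap. At day 11 the Pde4a shares were 59.0% ± 1.90 and 60.3% ± 1.16.

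**Figure D4:**
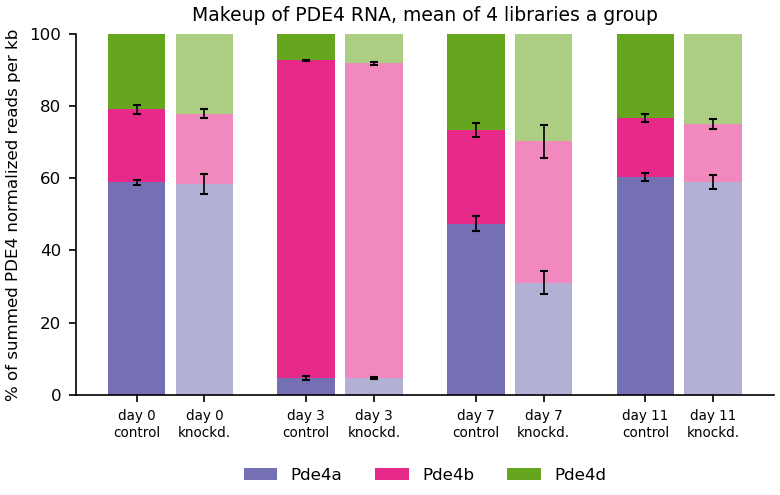
Share of each PDE4 gene in the summed normalized reads per kb of exon of Pde4a, Pde4b and Pde4d (vertical axis, percent, from 0 to 100), as group means of 4 libraries with SD, for control (dark) and knockdown (light) at each day. Pde4b makes 87.9% of the control sum at day 3, and at day 7 the Pde4a share is 31.1% in knockdown and 47.4% in control.

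At day 11 only Crem was called among the 8, where 16.8% of genes were called higher and 16.2% lower. It had 174.6 and 170.3 normalized reads with shRNA 1 and 225.4 and 241.2 with shRNA 2, against 127.3 to 167.3 in control libraries, with no overlap. The log2 difference was 0.40 ± 0.12 (SE), adjusted p = 0.0263. A fit with a block for the replicate number ended the call, and 5 of 6 same-numbered pairs of day 11 correlated over 0.1. The call was also lost without shRNA 2 replicate 1 or 2 or without control replicate 1, 3 or 4, with adjusted p from 0.0547 to 0.0814. With shRNA 1 alone against control it was 0.21, adjusted p = 0.16, while Prkar2b was called at 0.35 (adjusted p = 7.92e-05), Pde4b at -0.32 (0.0224) and Pde4a at -0.23 (0.0243). With shRNA 2 alone Prkaca was called at 0.18 (adjusted p = 0.00877) and Prkacb at -0.16 (0.0139), beside Crem. Outside the pooled fit, Prkar2b was called with hairpins as separate groups (0.13, adjusted p = 0.0251) and Prkar1a in 1 fit of all 32 libraries (-0.10, adjusted p = 0.0286). Leaving out shRNA 1 replicate 2 put Prkaca past the threshold (0.16, adjusted p = 0.0257), and leaving out shRNA 2 replicate 2 did so for Pde4a (-0.21, adjusted p = 0.0499). Pde4b was no longer higher: 251.2 and 195.3 normalized reads with shRNA 1 lay below the control range of 263.6 to 302.7, and 290.3 and 299.7 with shRNA 2 lay within it. The pooled difference was -0.14 with a 95% interval from -0.39 to 0.12.

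**Figure D5:**
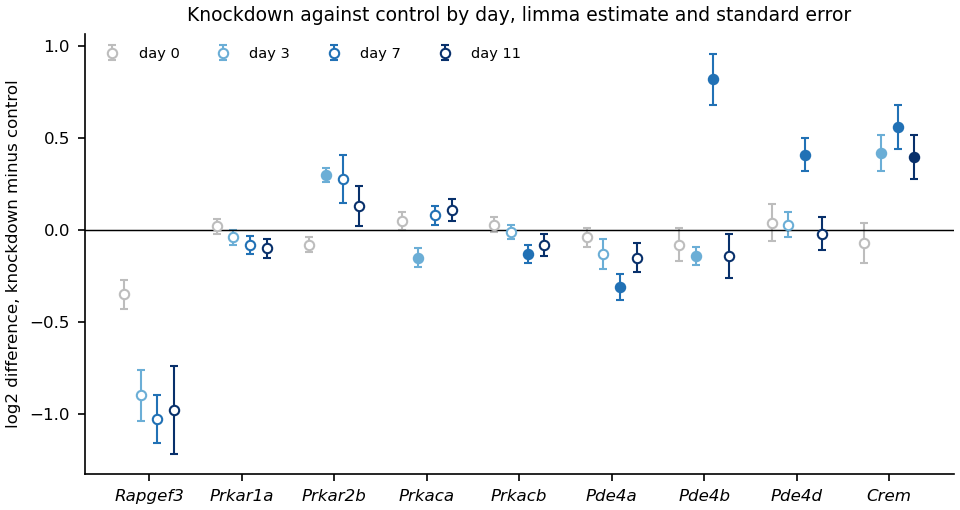
Log2 difference of knockdown minus control (vertical axis) with its SE for the 9 members that passed the filter, at days 0, 3, 7 and 11 from light to dark. Filled circles passed an adjusted p of 0.05; Rapgef3 was not tested and is drawn open, at -0.35, -0.90, -1.03 and -0.98.

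The change of the knockdown difference between neighbouring days was tested itself, in 1 fit of all 32 libraries. Between day 0 and day 3 limma called none of 8 members, where 6.57% of genes were called, and 3 members (Prkar2b, Prkaca and Crem) had an unadjusted p under 0.05, in voom as well, which called 0. Between day 3 and day 7 it called 3 of 8, where 23.1% of genes were called. The difference moved up by 0.96 ± 0.16 (SE, log2) for Pde4b, from -0.14 to 0.82, adjusted p = 4.14e-05. For Pde4d it moved up by 0.38 ± 0.13, from 0.03 to 0.41, adjusted p = 0.0382. For Prkaca it moved up by 0.23 ± 0.08, from -0.15 to 0.08, adjusted p = 0.0253. Between day 7 and day 11 limma called 2 of 8, where 12.7% of genes were called. The difference of Pde4b fell by 0.96 ± 0.16, adjusted p = 0.000133, and that of Pde4d fell by 0.42 ± 0.13, adjusted p = 0.0313. Neighbouring steps share the libraries of the day between them. Under rescaling to equal totals, positive changes went from 56.2% to 42.4% of calls at the first step and from 55.9% to 45.3% at the second. The same rescaling put Prkaca past the threshold between day 0 and day 3, at -0.23 (adjusted p = 0.0497) against -0.20 (adjusted p = 0.107) as deposited. So did leaving out day 0 shRNA 2 replicate 2 (-0.24, adjusted p = 0.0474), and Prkar2b passed it for the same change without day 7 shRNA 2 replicate 1 (0.39, adjusted p = 0.0441). The Pde4b calls held in each fit that left out 1 library.

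The Pde4d and Prkaca calls on the change between days were lost without single libraries. At the earlier step the Pde4d call was lost without day 3 shRNA 1 replicate 1 or 2, shRNA 2 replicate 1 or control replicate 2, 3 or 4, or without day 7 shRNA 2 replicate 2 or control replicate 4, with adjusted p from 0.0504 to 0.104. At the later step it was lost without day 7 shRNA 2 replicate 2 or control replicate 4, or day 11 shRNA 1 replicate 2 or control replicate 1, with adjusted p from 0.0524 to 0.0801. The Prkaca call was lost without day 3 shRNA 2 replicate 1 or control replicate 1 or day 7 shRNA 1 replicate 2, with adjusted p from 0.0558 to 0.0684. Rescaling to equal totals ended the earlier Pde4d and Prkaca calls, at 0.34 (adjusted p = 0.0594) and 0.19 (adjusted p = 0.0551), and fitting with no filter ended the earlier Pde4d call (adjusted p = 0.0514).

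The 2 hairpins were then compared with each other. Rapgef3 was lower with shRNA 1 than with shRNA 2 on all 4 days without overlap, at 69.4%, 39.1%, 38.5% and 33.8% of control in day order with shRNA 1 and at 85.7%, 61.6%, 54.3% and 66.9% with shRNA 2. The log2 difference, shRNA 2 minus shRNA 1, was 0.28, 0.55, 0.45 and 0.90, given with no test since these libraries chose the gene. At day 7 it was 0.25 without shRNA 1 replicate 2. Fibroblast markers summed to less with shRNA 1 than with shRNA 2 at day 0 (694262 to 725134 and 795194 to 801223), day 3 (313863 to 328570 and 376576 to 388483) and day 11 (634661 to 726192 and 768205 to 780751) and overlapped at day 7, and their part in the Rapgef3 values was not tested. Zbtb9 itself was at 53.8%, 36.0%, 45.9% and 88.5% of control in day order with shRNA 1 and at 70.0%, 65.1%, 39.6% and 20.5% with shRNA 2, each from 0 to 17 reads a library.

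Of the other 8 members 2 were called between hairpins at day 0, where 35.0% of genes were called. Counts were 1 of 8 at day 3, where 19.6% were called, 2 of 8 at day 7, where 16.4% were, and 2 of 8 at day 11, where 22.0% were. Prkar2b at day 3 differed by 0.00 with a 95% interval from -0.11 to 0.12, but at day 7 it had 7743 and 7452 normalized reads with shRNA 1 and 5037 and 5524 with shRNA 2, beside 4886 to 5365 in control libraries. In normalized reads that is 147.1% and 102.2% of control, and the deposited log2 values differed by -0.51 ± 0.06 (SE), adjusted p = 1.15e-06. At day 11 it was at 128.3% and 93.2%, a difference of -0.45 ± 0.06, adjusted p = 8.72e-05. Adipocyte markers summed to 201140 to 206452 normalized reads with shRNA 1 and 136843 to 164211 with shRNA 2 at day 7, while at day 11 they overlapped, at 120261 to 143676 and 118285 to 131482. Their part in the Prkar2b difference was not tested. Rescaling to equal totals moved the genes higher with shRNA 2 from 45.8% to 61.9% of calls at day 7, with the Prkar2b call kept.

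Pooled over both hairpins Prkar2b was not called at day 7 (0.28 ± 0.13, adjusted p = 0.0959). It was called without shRNA 2 replicate 1 (0.39, adjusted p = 0.0045), in a fit with the hairpins as separate groups (adjusted p = 2.22e-06) and in 1 fit of all 32 libraries (0.016).

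Pde4b went the opposite way, higher with shRNA 2 than with shRNA 1 at days 3, 7 and 11 by 0.17, 0.54 and 0.37 (log2), adjusted p = 0.00509, 0.000236 and 0.0384. At day 7 it was at 150.1% of control with shRNA 1 and 221.0% with shRNA 2, so both hairpins lay above control. Leaving out shRNA 1 replicate 1 or shRNA 2 replicate 2 ended the day 3 call (adjusted p = 0.08 and 0.0663), and that of day 11 was lost without shRNA 1 replicate 2, shRNA 2 replicate 1 or 2 or control replicate 2, 3 or 4, with adjusted p from 0.0501 to 0.355. Without shRNA 1 replicate 2 the day 11 difference was 0.21, and voom did not call it either (adjusted p = 0.0629). Dropping trend and robust step ended the day 3 and day 11 calls (adjusted p = 0.0755 and 0.056), 1 fit of all libraries that of day 3 (0.215), and no filter or the knockdown libraries alone that of day 11 (0.0689 and 0.101). Crem was higher with shRNA 2 on every day by 0.29 to 0.37, which was not called on any day in the fits of single days (adjusted p from 0.0585 to 0.117). It was called in 1 fit of all 32 libraries at days 7 and 11 (adjusted p = 0.0474 and 0.0317) and with trend and robust step dropped at days 3 and 11 (0.0353 and 0.0432). It was at 136.7% and 183.8% of control at day 7 with shRNA 1 and shRNA 2. At day 0 Pde4d was higher and Prkaca lower with shRNA 2, by 0.38 and -0.16, adjusted p = 0.00137 and 0.00618, and the Prkaca call was lost without shRNA 1 replicate 2 or shRNA 2 replicate 2 (adjusted p = 0.113 and 0.145). Leaving out 1 library added hairpin calls for Pde4b at day 0 (0.33, without shRNA 1 replicate 1, adjusted p = 0.04), for Pde4d (0.28, without shRNA 2 replicate 1, 0.0332) and Prkaca (-0.17, without shRNA 2 replicate 2, 0.0422) at day 3, and for Prkaca (0.23, 0.0235) and Pde4d (0.35, 0.0283) at day 11, both without shRNA 1 replicate 1.

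The rest of the pathway was mixed in knockdown. The cAMP-induced list had 0 of 13 tested genes called higher and 3 lower at day 0, where 0.817% of all genes were called higher and 2.44% lower, and its median log2 difference was -0.10. At day 3 it had 3 of 13 higher and 1 lower, where 14.6% and 12.1% of all genes were. At day 7 it had 6 of 14 higher and 2 lower, where 24.9% and 22.6% were, and at day 11 it had 10 of 14 higher and 0 lower, where 16.8% and 16.2% were. Its medians on these days were 0.06, 0.25 and 0.56, and those of all genes were -0.01, 0.00, 0.01 and -0.01 in day order. At day 0 Fos, an immediate early transcription factor, had 313.0 ± 18.4 normalized reads in knockdown (SD, n = 4) and 496.2 ± 22.7 in control. At day 3 Atf3, a stress-induced member of the CREB family, had 832.0 ± 88.2 normalized reads in knockdown (SD, n = 4) and 440.1 ± 28.4 in control, while Nr4a1 had 11171 ± 340.1 and 17500 ± 464.9. At day 11 Dusp1, a MAP kinase phosphatase, had 1334 ± 125.0 and 569.8 ± 43.2.

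Pde3b is 1 of 5 tested phosphodiesterases outside the PDE4 members, and insulin activates it in fat cells to lower cAMP. It had 432.9 ± 52.6 normalized reads in knockdown at day 7 (SD, n = 4) and 109.7 ± 2.01 in control. At day 11 it had 435.2 ± 36.3 and 114.2 ± 28.0. It was the 1 gene of that list called higher on each of these days. At day 11 Pde1b was called lower, with 411.4 ± 19.4 and 634.8 ± 57.5, a log2 difference of -0.58 ± 0.08 (SE), adjusted p = 0.000169. Among other PKA genes Pkig, an inhibitor of the catalytic subunits, had 1150 ± 59.2 and 684.8 ± 62.9 at day 7, and Prkar2a, the widespread type II regulatory subunit, 2165 ± 315.1 and 1451 ± 53.8 at day 11. Rap1a, a GTPase that Epac1 loads, had 1308 ± 76.6 and 879.2 ± 80.4 at day 7. There 2 of 14 Rap genes were called higher and 3 lower, which is no larger a share than that of all genes. Gnai2 was called lower at days 3, 7 and 11, with 10300 ± 737.3 in knockdown and 13205 ± 247.9 in control at day 7. Of 11 CREB family genes and coactivators 1 was higher and 3 lower at day 7, where 24.9% and 22.6% of all genes were, among them Crtc1 with 743.9 ± 39.9 and 1031 ± 20.8.

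Over the 32 libraries, the genes whose deposited log2 values followed those of Rapgef3 most closely, of 10784 genes with a mean of at least 50 on the linear scale, were Tle2, Cul7, Pdgfra, Rftn2 and Dlg3. Pearson's r was 0.982, 0.978, 0.976, 0.971 and 0.970, and after each day's mean was subtracted 0.963, 0.945, 0.969, 0.952 and 0.927. The libraries share day and hairpin, so these values describe the pattern and carry no p. They include the knockdown libraries whose values chose Rapgef3, so the order of genes is not separate from that choice. Pdgfra, the platelet-derived growth factor receptor α of fibroblasts and preadipocytes, is on the fibroblast list, and had 12717 ± 153.8 normalized reads in control and 6158 ± 1167 in knockdown libraries at day 7 (SD, n = 4). Tle2, a corepressor of the Groucho family, had 1229 ± 166.2 and 596.4 ± 78.6. Of the other members, Pde4a (0.772) and Prkar1a (0.661) had the highest r to Rapgef3 and Crem (-0.825) the lowest. After each day's mean was subtracted the values were 0.731, 0.710 and -0.482, and Prkar2b went from 0.016 to -0.724 and was then the lowest.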

How the data were processed

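RNA from 3T3-L1 cells was sequenced in 32 libraries, made with spin-column RNA and a TruSeq RNA kit per the labels' protocols. Per the submitters' processing notes, TopHat2 2.1.0, Bowtie2 2.2.6, SAMtools 1.3.1 and HTSeq 0.6.1 were used, while build, annotation, strand use and transform are not given in the sources used here. For 20560 genes the table holds deposited log2 values with the form of a regularized log. They were inverted to reads: 99.3% of values lay no more than 0.1 from a whole number (20% would by chance), and 94.6% of genes and 9 of 10 members did so in all libraries. Libraries held 22280363 to 31073726 reads in genes.

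Normalized reads are rebuilt reads divided by the size factor, and per kb values use merged exons of GENCODE release M21 (20521 identifiers matched). Merged exons hold the bases of all annotated transcripts of a gene, so orders and shares per kb depend on that length. The deposited log2 values were tested with limma 3.58.1 in R 4.3.3 (trend, robust), per day for knockdown against control, over control libraries for steps between days, and over all libraries for changes between days. Hairpins were compared in the fit of their own day. Genes with a value of at least 10 on the linear scale in at least 4 libraries were tested, and p-values were adjusted by Benjamini-Hochberg over all of them. The simulated data held no difference between hairpins, so the shares from them do not cover that spread in the pooled fit. On the simulated data the day 7 fit recovered 93.8% of genes changed by 1 and 99.0% of those changed by 2 on the log2 scale. Of its calls 4.00% were false. At day 3 the false share was 6.37%.

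Members, gene lists and marker lists were chosen with earlier results of these data known. Named list genes are the called ones with the largest change in each direction and a mean level of at least 50. Alternatives changed the filter, scaling, pseudocount, variance model (trend and robust step dropped together), replicate block, libraries and hairpins, and limma with voom weights on rebuilt reads was added after seeing the data. Replicate pairs of a group differed by 2.92 to 11.02 in chi-square per degree of freedom, so none was counted as a repeat. Protein sequences were not used here.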

Additional observations from a re-analysis of the deposited data

Results flagged for a closer look

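In control libraries at day 0, Pde4b replicate 2 stood apart from the other 3, with 386.5 normalized reads against 337.4 to 344.4. On the deposited log2 scale the gap was 0.837 of the group's range, and chance alone sets a library apart in this way in about 1 of 20 groups, of which 36 were examined.

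The knockdown difference of 3 members changed between days. From day 3 to day 7 it changed by 0.96 (log2) for Pde4b, by 0.38 for Pde4d and by 0.23 for Prkaca. From day 7 to day 11 it changed by -0.96 for Pde4b and by -0.42 for Pde4d. The differences were tested as a change between days with limma, and the Pde4d and Prkaca calls were lost without single libraries.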

How the results depend on the processing

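Counts of members called held within 1.5 times in all comparisons of control days under every alternative. With no filter, or with the variance trend and the robust step both dropped, 2 members were called at day 3 in knockdown. With shRNA 1 alone the counts were 2, 2 and 3 at days 0, 3 and 11 and with shRNA 2 alone 1 at day 0 and 3 at day 11. With hairpins as separate groups, or in 1 fit of all libraries, 2 were called at day 11. Between hairpins that 1 fit called 0 at day 3 and 4 at day 11, the fit without trend and robust step 1 at day 0, rescaling 2 at day 3, and no filter, voom or knockdown libraries alone 1 at day 11. For the change from day 0 to day 3, 1 was called after rescaling, 2 with shRNA 1 and 3 with shRNA 2. Leaving out 1 library gave 2 to 4 calls at day 3 and 0 to 2 at day 11 in knockdown, 1 to 3, 0 to 2 and 1 to 4 between hairpins at days 0, 3 and 11, and 0 to 1, 1 to 3 and 1 to 2 for the changes between days.

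Among same-numbered control libraries of different days 1 of 24 correlations passed 0.1 (-0.095 to 0.124). Within a day 5 of 24 did (-0.002 to 0.224), all among the 6 of day 11, where the other was 0.006. Replicate numbers therefore did not pair the libraries at days 0, 3 and 7, while at day 11 pairing was not settled. Each hairpin had 2 libraries a day, so the values between hairpins are equal for both replicate numbers and the 24 are not independent. With the replicate block 1 member was called at day 3 and 0 at day 11 in knockdown and 2 between hairpins at day 3, and Prkacb at day 3 was 0.02. The block ended the knockdown calls of Prkaca, Pde4b and Crem at day 3 (adjusted p = 0.175, 0.317 and 0.133), Prkacb at day 7 (0.114) and Crem at day 11 (0.31, adjusted p = 0.277), and that of Pde4d for the change from day 3 to day 7 (0.0524).

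Signs turned as follows, with no call on either side except for Prkar2b from day 3 to day 7, which was -0.02 over both hairpins and was called at 0.24 with shRNA 1 alone and at -0.27 with shRNA 2 alone. With shRNA 1 alone Pde4d was -0.15 at day 0, -0.07 at day 3 and 0.08 for the change between them, and the change from day 7 to day 11 was -0.08 for Prkaca and -0.17 for Rapgef3. With shRNA 2 alone Prkaca was -0.03, Pde4b 0.02 and Crem 0.08 at day 0, Prkar2b -0.10, Pde4d 0.09 and Pde4b 0.05 at day 11, and Prkacb -0.04 for the change from day 7 to day 11. After rescaling, the hairpin difference was -0.001 for Prkar1a at day 0 and -0.01 for Prkar2b and Prkacb at day 3. Leaving out 1 library turned the sign of the following, given as ranges. In knockdown Pde4d ran from -0.03 to 0.13 and Crem from -0.13 to 0.01 at day 0, Prkacb from -0.03 to 0.01 and Pde4d from -0.03 to 0.09 at day 3, and Pde4d from -0.06 to 0.06 at day 11. Between hairpins Prkar1a ran from -0.01 to 0.01 at day 0, from -0.01 to 0.03 at day 7 and from -0.03 to 0.12 at day 11, and at day 3 Prkar2b from -0.01 to 0.01, Prkacb from -0.02 to 0.03 and Pde4a from -0.06 to 0.02. For the changes between days, Pde4d ran from -0.10 to 0.06 at the first, Prkar2b from -0.11 to 0.09 and Rapgef3 from -0.24 to 0.01 at the second, and Prkaca from -0.01 to 0.08 and Rapgef3 from -0.11 to 0.25 at the third. The cause was not tested. Depth limits Rapgef4, which had 7 reads or fewer in every library.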
